A study of Mus musculus with 10 samples.

Results

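Interferon-induced genes are the genes that cells switch on when an interferon binds its receptor, and 37 of them were followed here in regulatory T cells (Tregs) of melanoma-bearing mice. They were chosen by a list of symbols: 26 are typical of the type I response (the Ifit, Oas and Mx families, Isg15, Irf7 and others), 8 are GTPases induced above all by interferon gamma (Gbp2, Gbp3, Gbp4, Gbp5, Gbp7, Igtp, Irgm1 and Iigp1), and 3 are other genes that respond to interferon gamma (Irf1, Cxcl10 and Parp14). All 37 were found among the 21556 genes of the count table, and all 37 passed the filter on low counts, which left 13920 genes to test. The division is one of habit rather than of kind, since most of these genes answer to both interferons.

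The Tregs were sorted by flow cytometry on a red fluorescent protein (RFP), whose gene the labels do not name, from 10-week-old mice that had been injected with a lymphangiogenic mouse melanoma line. Control mice are MHCIIfl/fl, with a floxed MHC class II allele and no Cre (labelled Prox1CreNeg). MHCII-deleted mice are MHCIIdeltaProx-1 (labelled Prox1CrePos), in which Cre is driven by Prox1 and the MHC class II of the lymphatic endothelium is lost. The deletion is therefore in the lymphatic vessels and not in the sorted cells, so that these libraries cannot check it. Either the tumor or a lymph node (LN) was the source, with 3 libraries per tissue from control mice and 2 per tissue from MHCII-deleted mice. The labels do not say whether the libraries of a group are separate mice, so the p-values measure only the spread between these libraries, which may be technical.

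Type I interferons signal through Ifnar1 and Ifnar2 and the kinases Jak1 and Tyk2 to a complex with Stat2 and Irf9, which binds a DNA element called the interferon-stimulated response element (ISRE). Interferon gamma signals through Ifngr1 and Ifngr2 and the kinases Jak1 and Jak2, and its signal ends at a DNA element called the gamma-activated site (GAS). Most products of the type I genes act against viruses, while the GTPases attack the vacuoles in which microbes live and Cxcl10 draws T cells that carry Cxcr3.

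Both elements can be read in the sequences just upstream of the genes whose levels are described below. The RefSeq promoter table (GRCm38.p6, 250 bases before to 50 after each start) holds 26 of the 37 genes. The ISRE core was searched as 2 copies of GAAA with any 2 bases between them, and the GAS as TTCNNNGAA, where N is any base. Both strands were read, and neighbouring or different matches may overlap. An ISRE match stood in 17 of the 26 genes (65.4%), against 3.99% of the 27025 genes in the table. It stood in 10 of 18 type I genes and in 6 of 6 GTPases. A GAS match stood in 8 of the 26 (30.8%), against 9.55% of all genes, with 4 of 18 type I genes and 3 of 6 GTPases. A match is a run of letters and not a shown binding site. The 180 bases upstream of 6 genes are printed below, 5′ to 3′ on the gene's own strand, with the matches in capitals. An ISRE on the other strand shows as TTTC, 2 bases and TTTC. The first 4 are type I genes whose levels differed several-fold between LN libraries and that carry ISRE letters alone. Igtp carries a GAS match and an ISRE match side by side, and Irf1 carries a GAS match alone. Not all type I genes paired a match with a wide gap. Irf7, Oasl1, Oasl2 and Ifi44 had no match of either kind. They differed by 3.33- to 7.23-fold between the 2 LN libraries of MHCII-deleted mice. Stat2, Bst2, Ifih1 and Ddx58 had an ISRE match and differed by 1.94- to 2.18-fold. A link between match and level was not tested.
Ifit1 (chr19:34640709-34640888, + strand): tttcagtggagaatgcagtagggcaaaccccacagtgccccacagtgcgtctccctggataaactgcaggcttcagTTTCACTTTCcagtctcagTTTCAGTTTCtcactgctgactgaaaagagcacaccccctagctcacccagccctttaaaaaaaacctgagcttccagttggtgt
Ifit3 (chr19:34583349-34583528, + strand): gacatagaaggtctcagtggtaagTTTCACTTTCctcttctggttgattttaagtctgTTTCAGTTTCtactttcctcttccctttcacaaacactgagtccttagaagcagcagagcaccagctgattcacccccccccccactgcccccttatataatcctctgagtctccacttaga
Isg15 (chr4:156200819-156200998, - strand): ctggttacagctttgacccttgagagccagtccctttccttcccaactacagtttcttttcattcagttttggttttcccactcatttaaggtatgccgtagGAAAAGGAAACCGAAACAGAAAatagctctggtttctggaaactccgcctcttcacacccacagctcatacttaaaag
Rsad2 (chr12:26456453-26456632, - strand): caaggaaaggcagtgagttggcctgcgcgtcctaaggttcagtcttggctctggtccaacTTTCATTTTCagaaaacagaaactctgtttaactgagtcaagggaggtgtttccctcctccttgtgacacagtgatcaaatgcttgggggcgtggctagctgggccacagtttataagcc
Igtp (chr11:58199376-58199555, + strand): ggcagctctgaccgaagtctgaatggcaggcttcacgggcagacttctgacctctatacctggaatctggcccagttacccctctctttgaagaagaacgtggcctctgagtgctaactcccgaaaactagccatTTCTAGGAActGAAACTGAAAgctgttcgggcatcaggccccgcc
Irf1 (chr11:53769834-53770013, + strand): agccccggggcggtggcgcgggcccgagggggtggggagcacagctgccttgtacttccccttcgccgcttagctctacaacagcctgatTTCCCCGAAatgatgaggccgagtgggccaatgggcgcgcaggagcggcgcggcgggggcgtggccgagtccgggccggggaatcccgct
Ifit1 and Ifit3 each have a pair of separate ISRE matches. In Isg15 the capitals are 3 overlapping ISRE matches from base -78 to base -57, counted from the start site. In Igtp the GAS match spans bases -45 to -37 and the ISRE match bases -34 to -25. Irf1 has its GAS match at bases -90 to -82, and the table lists 2 starts for it.

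Several members lie in clusters of related genes. Ifit2 (chromosome 19, 34550694 to 34576419 in GRCm38), Ifit3 (34583531 to 34588731) and Ifit1 (34640871 to 34650009) are neighbours, and Oas2, Oas3 and Oas1a lie between 120730333 and 120907521 on chromosome 5. Gbp5, Gbp7, Gbp3 and Gbp2 lie between 142493978 and 142638008 on chromosome 3. Reads of such relatives can be split between copies, and how the authors' counting treated them is not given in the sources used here. Gene models also overlap for Irf7 with Phrf1, Irf9 with Rnf31, Rtp4 with Masp1, Gbp4 with Gbp8 and Gbp9, Igtp with Irgm2, Irf1 with Gm17334 and Cxcl10 with Art3. The values of these 7 members carry that uncertainty, because the strand setting of the counting is not given either.

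The libraries held 28539329 to 35736175 counts, and a count of 0 allows up to 0.0839 to 0.105 CPM in a library (with 3 counts as the floor). CPM are counts scaled to a common library size, here by TMM unless stated. Floors cover counting error only. Treg markers (Foxp3, Il2ra, Ctla4, Ikzf2, Tnfrsf18 and Cd4) were detected in all 10 libraries. Their sum was 3434 to 3733 CPM in LN and 7365 to 8051 in tumor of control mice, and 3006 and 3236 in LN and 3238 and 3591 in tumor of MHCII-deleted mice. A list of 12 melanoma markers summed to 4846 to 9449 CPM in tumor libraries of control mice and to 19240 and 23460 in those of MHCII-deleted mice, against 16.3 to 34.5 in LN. The sum of 20 genes shared by T cells was 14170 to 15610 CPM in the 8 other libraries and 6039 and 7249 in tumor of MHCII-deleted mice. Comparisons with that group are therefore given relative to all counts and, where it matters, relative to the T cell genes. This second scale moved the median of all genes in the deletion effect in tumor from 0.10 to 1.23 (log2). In bulk samples, fewer cells of a type and less RNA per cell cannot be told apart. Markers of B cells, myeloid cells and CD8 T or NK cells summed to at most 130.1, 67.1 and 98.4 CPM in any library. Of the 19 myeloid markers 3 to 12 were at 0 in a library, and the neutrophil receptor Csf3r was at 0 in all 10. The 14 stromal and endothelial markers summed to 366 to 4283 CPM in tumor libraries and to 182.5 to 219 in LN. In LN nearly all of this sum was Pecam1 (179.6 to 214.9 CPM), which was lower in tumor (61.75 to 99.8). The lymphatic endothelial markers Lyve1 and Flt4 stood at 83.3 and 60.8 CPM in tumor library 2 of MHCII-deleted mice. In the other tumor libraries they stood at 1.16 to 5.47 and 0.264 to 10.6 CPM. The part of any of these cells in the interferon-induced genes was not tested.

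Levels differed widely between the genes. Per kilobase of exon, and in LN of control mice, Ifi27l2a stood highest with 2490 CPM per kb, followed by Ly6e, a lipid-anchored surface protein, with 969. Igtp followed with 260, and the other members lay between 0.251 (Mx2) and 128 (Bst2, tetherin, which holds budding virus at the cell surface). Oas2, Mx1 and Mx2, an RNA-triggered synthetase and 2 antiviral GTPases, reached at most 11.7, 12.5 and 5.18 CPM in any library. Among the gamma induced GTPases, the lowest level per kilobase was that of Gbp5 (9.15 in LN of control mice).

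**Figure D1:**
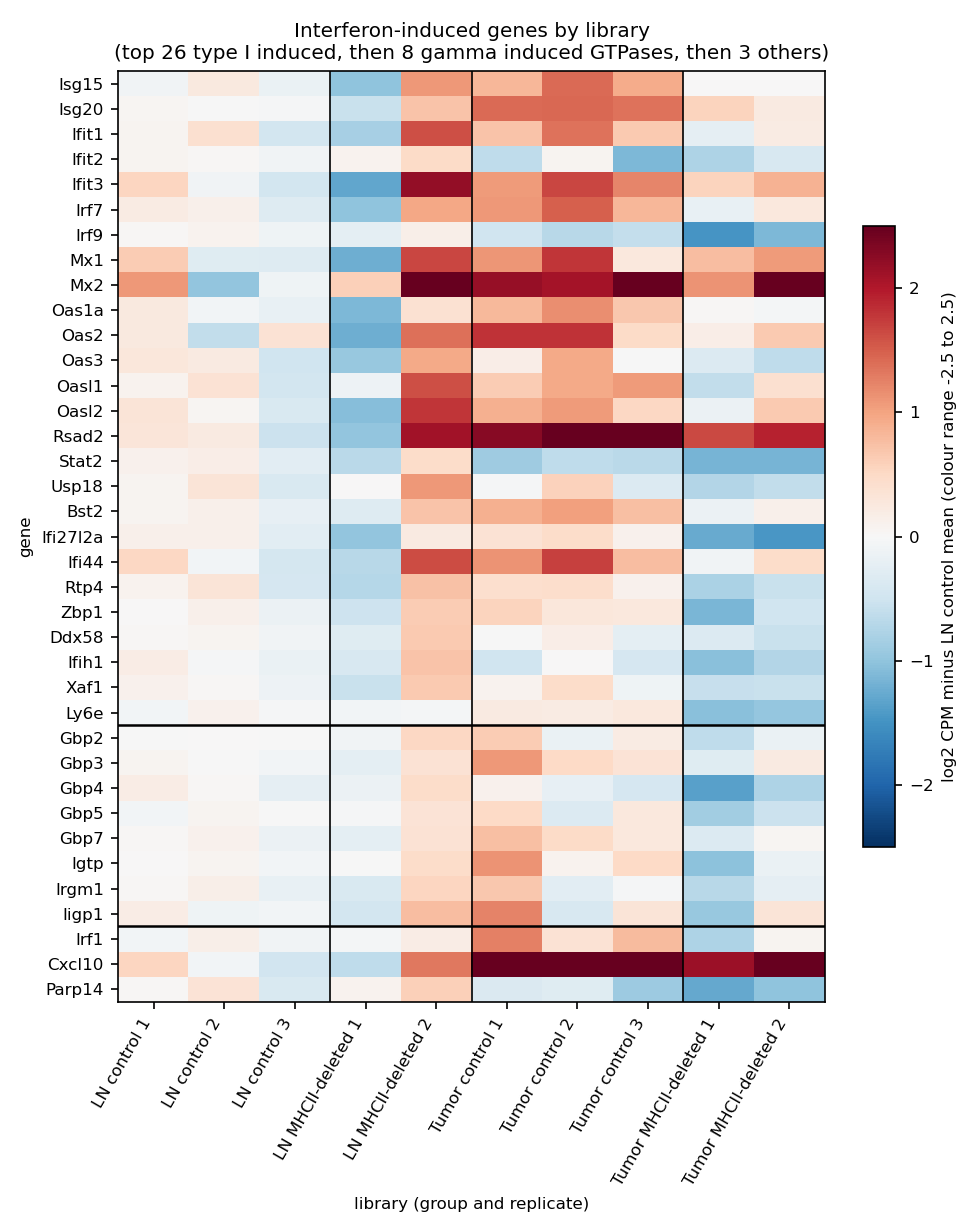
Level of the 37 genes in each of the 10 libraries, as log2 CPM minus the mean of the LN libraries of control mice (colour, limited to -2.5 to 2.5; red is higher). In the upper block of type I genes, library 1 of LN of MHCII-deleted mice is mostly blue and library 2 mostly red.

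In LN, the type I genes differed more between the 2 libraries of MHCII-deleted mice than between the genotypes. All 26 type I genes were higher in library 2 than in library 1, where 6307 of 13920 genes were. Of the 26, 22 were higher by more than 2-fold (84.6%, against 5.55% of all genes), with a median log2 difference of 1.48. Over all 37 genes, library 1 lay below the 3 control libraries for 28 (24.8% of all genes) and library 2 above them for 36 (26.3%). In 21 of the 26, library 1 lay below all 3 control libraries and library 2 above them, which was so for 3.68% of all genes. Library 2 was the highest of all 10 libraries, tumor included, for 14 of the 26 (6.35% of all genes), and library 1 the lowest for 13 (16.3% of all genes). These counts describe 2 libraries and have no test.

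Ifit3, which binds viral RNA together with its neighbour Ifit1, had the widest gap. Its levels were 44.2, 28.8 and 22.3 CPM in LN of control mice and 12.4 and 141 in the LN libraries with the deletion, an 11.4-fold difference within the group. Ifit1 stood at 114, 144 and 78.6 CPM in controls and 60.9 and 331 in MHCII-deleted mice, 5.43-fold apart. Both genes thus spanned the control values on either side. Rsad2 (viperin, a radical SAM enzyme that makes a chain-terminating nucleotide) stood at 24.2, 22.9 and 13.4 CPM in controls and 9.77 and 84.1 in MHCII-deleted mice. Isg15, a ubiquitin-like protein joined to other proteins, stood at 68.9, 86.0 and 64.9 against 36.1 and 155 CPM. Irf7, the factor that amplifies interferon production, stood at 209, 197 and 145 against 90.6 and 355 CPM. For these 3 genes as well, library 1 was under and library 2 over every control library. The same order held for the oligoadenylate synthetase relative Oasl2 (11.5 and 83.2 CPM in the MHCII-deleted libraries), for Mx1 (1.51 and 11.6) and for Oas2 (1.36 and 8.62). Library 1 held 34776051 counts and library 2 held 30735928. Their T cell genes summed to 15450 and 14990 CPM, their myeloid markers to 67.1 and 41.6, their B cell markers to 46.6 and 75.3 and their melanoma markers to 34.5 and 27.8.

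Other type I genes differed less between the 2 libraries. Ly6e stood at 3482, 3937 and 3586 CPM in LN of control mice and 3477 and 3546 in those with the deletion, a ratio of 1.02. Irf9, the DNA-binding subunit of the type I complex, stood at 326, 340.2 and 295 against 270.3 and 352 CPM, a ratio of 1.3. Ifit2 had the same ratio of 1.3 (70.2 and 91.3 CPM). Stat2, the partner of Irf9, was further apart, at 143, 149 and 109.8 CPM in controls and 82.9 and 181 in MHCII-deleted mice.

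The gamma induced GTPases followed the same order with smaller gaps. All 8 were higher in library 2, but only Iigp1 by more than 2-fold (110.3 and 259.5 CPM), and their median log2 difference was 0.61. Igtp, which guards against vacuolar parasites, stood at 528, 552 and 498 CPM in controls and 521 and 723 in MHCII-deleted mice. Irf1, the factor that carries the gamma signal on to later genes, stood at 358, 417 and 355 against 364 and 429 CPM, with only the higher library outside the control range. Cxcl10 stood at 20.6, 13.6 and 10.1 against 9.12 and 35.6 CPM. Of 49 other interferon targets that could be tested, 45 were higher in library 2, with a median of 0.70. By more than 2-fold 11 were higher (22.4%, against 5.55% of all genes). Over all genes, 6307 of 13920 were higher in library 2, with a median of 0. The receptors, kinases and Stat3 did not share this order: 2 of 8 were higher in library 2 and their median was -0.10.

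**Figure D2:**
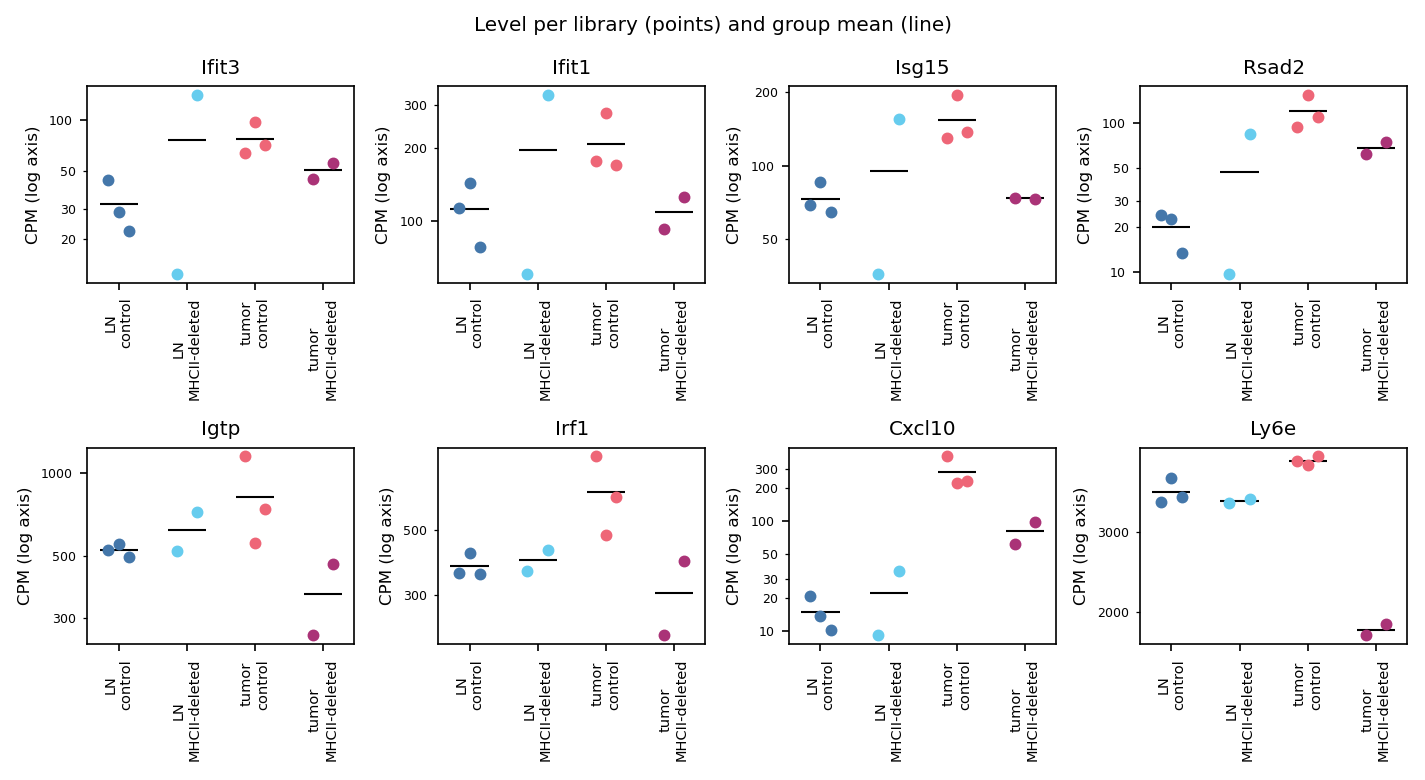
CPM (log axis) of 4 type I genes (upper row) and of Igtp, Irf1, Cxcl10 and Ly6e (lower row) in the 4 groups; each point is a library and each line a group mean. The 2 LN libraries of MHCII-deleted mice lie far apart in the upper row and close together for Ly6e.

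With that spread, no member passed the test of the deletion effect in LN. By edgeR's quasi-likelihood test 0 of 37 were higher and 0 lower at an adjusted p under 0.05, where 1.07% of all genes were called higher and 0.0359% lower, and 1 (Mx2) had an unadjusted p under 0.05. Relative to the T cell genes the counts were also 0 (2.74% and 0.0575% of all genes). DESeq2 called 0 as well (4.97% of all genes higher and 0.477% lower, with 1 member at an unadjusted p under 0.05), and so did limma-voom (5.4% and 0.223%, with 0 members). The median log2 fold change of the type I genes was 0.28, and it changed sign with the library kept: it was 0.81 without library 1 of MHCII-deleted mice and -0.72 without library 2. The GTPases gave 0.17, 0.46 and -0.20 in the same order. For single genes the standard error bounds what could be seen: Ifit1 stood at 0.81 ± 0.55 (SE, adjusted p = 0.878) and Ifit3 at 1.27 ± 0.71 (SE, adjusted p = 0.749), whereas Ly6e, with its tight libraries, stood at -0.06 ± 0.08 (SE, adjusted p = 1). A deletion effect of 2-fold on Ifit1 or Ifit3 in LN was not detectable with this spread.

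In control mice, the tumor libraries held more RNA of some interferon-induced genes than the LN libraries, and less of Irf9 and Stat2. Of the 37, 8 rose and 2 fell, where 22.8% of all genes were called higher and 16.1% lower. The count of higher members is close to that background share, and that of lower members is below it. The type I genes had a median log2 fold change of 0.83 (4 rose and 2 fell), the GTPases 0.39 (2 rose) and all genes 0.08. All 3 tumor libraries lay above all 3 LN libraries for 15 of 26 type I genes and 3 of 8 GTPases, against 29% of all genes.

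Cxcl10 changed most. It stood at 20.6, 13.6 and 10.1 CPM in LN and 392, 227 and 234 in tumor of control mice, a log2 fold change of 4.26 ± 0.52 (SE, adjusted p = 0.000227). Rsad2 rose from 24.2, 22.9 and 13.4 to 94.0, 153 and 109 CPM, by 2.56 ± 0.62 (SE, adjusted p = 0.0101). Both genes were separated by tissue in every control library. Isg20, an RNA exonuclease, rose from 92.9, 89.6 and 87.7 to 241, 244 and 232 CPM, by 1.41 ± 0.26 (SE, adjusted p = 0.0022). Bst2 rose from 121, 127 and 99.8 to 213, 234 and 194 CPM, by 0.88 ± 0.23 (SE, adjusted p = 0.0123). Irf1 rose from 358, 417 and 355 to 896, 482 and 651 CPM, by 0.85 ± 0.25 (SE, adjusted p = 0.0235). For these 3 genes too, every tumor library stood above every LN library. Smaller rises were those of Ly6e (4290, 4205 and 4400 CPM in tumor, 0.23 ± 0.07), Gbp3 (0.67 ± 0.22) and Gbp7 (0.51 ± 0.18).

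Irf9 and Stat2, which work together in the type I complex, went the other way. Irf9 fell from 326, 340.2 and 295 to 226, 197 and 210.4 CPM, with -0.60 ± 0.13 (SE, adjusted p = 0.00478), and Stat2 fell from 143, 149 and 109.8 to 71.2, 84.8 and 82.8 CPM, with -0.75 ± 0.24 (SE, adjusted p = 0.034). Neither group of libraries overlapped the other for these 2 genes. Several genes with separated libraries did not pass, among them Isg15 at 1.07 ± 0.42 (SE, adjusted p = 0.0685), Irf7 at 1.14 ± 0.41 (SE, adjusted p = 0.053) and Ifit3 at 1.28 ± 0.66 (SE, adjusted p = 0.148). Usp18, which takes Isg15 off proteins and damps the type I receptor, stood at 104, 125 and 75.8 CPM in LN and 97.8, 149 and 78.2 in tumor, with overlap.

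The count of higher members in control mice changed with the libraries that share in the estimate of spread. It was 18 without library 1 of LN of MHCII-deleted mice, 17 without library 2 and 17 without both (the last chosen after seeing the data), although neither library enters the comparison. The shares of all genes called higher in these fits were 20.7%, 20.6% and 22.1%, so that these counts stood above the background. The count was 20 when only the 2 control groups were fitted (25% of all genes) and 15 with DESeq2 (27.6% of all genes), and on the T cell scale 11 were higher and 1 lower (23.1% and 11.2%). Leaving out LN control library 1, 2 or 3 gave 5, 5 and 3 (18.3%, 18.4% and 18.7% of all genes). Leaving out tumor control library 1 gave 4 (21.5%). These counts stood below the background, so that the side of it depended on the libraries fitted. The count of lower members was 1 without LN control library 1 or 2 or without tumor control library 1 or 3 (11.5% to 14.1% of all genes). Isg20, Rsad2, Cxcl10 and Irf9 were called in all 10 fits that left out 1 library. The call of Stat2 was lost in 5 of them, as were those of Irf1 and Gbp7, that of Ly6e and that of Gbp3 in 4, and that of Bst2 in 1.

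In the tumor, every one of the 37 genes had a lower fitted level relative to all counts in MHCII-deleted than in control mice, and 12 fell by the test. The background was high: 13.7% of all genes were called lower and 15% higher. Treg markers were called lower in 6 of 6, with a median of -1.14. Among type I genes 6 of 26 fell (Ly6e, Ifi27l2a, Zbp1, Isg20, Bst2 and Irf9), among GTPases 4 of 8 (Igtp, Gbp4, Gbp5 and Gbp7) and among the others Irf1 and Cxcl10. The median log2 fold change was -0.88 for the 37 genes, -0.89 for type I genes and -0.71 for GTPases, against 0.10 for all genes. Both libraries of MHCII-deleted mice lay below all 3 of control mice for 30 of the 37, which was so for 24% of all genes, and they lay above them for 0 (29.6% of all genes).

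Ly6e and Ifi27l2a had the firmest change. Ly6e stood at 4290, 4205 and 4400 CPM in tumor of control mice and 1772 and 1873 in tumor of MHCII-deleted mice, a log2 fold change of -1.24 ± 0.08 (SE, adjusted p = 0.000144). Ifi27l2a, a small interferon-induced membrane protein, stood at 1468, 1563 and 1239 against 475 and 417 CPM, with -1.68 ± 0.31 (SE, adjusted p = 0.004). These 2 were called in all 10 fits that left out 1 library. Zbp1, a sensor of left-handed nucleic acids, stood at 369, 306 and 302 against 114 and 178 CPM, with -1.16 ± 0.31 (SE, adjusted p = 0.0214). Isg20 stood at 241, 244 and 232 against 132 and 106 CPM, with -1.01 ± 0.29 (SE, adjusted p = 0.0287). For both, the MHCII-deleted libraries lay well below the controls. Bst2 stood at 213, 234 and 194 against 105 and 127 CPM, with -0.89 ± 0.26 (SE, adjusted p = 0.0293). Irf9 stood at 226, 197 and 210.4 against 115 and 146 CPM, with -0.69 ± 0.15 (SE, adjusted p = 0.00709).

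The Ifit, Oas and Mx families gave no call. Ifit1 stood at 177, 279 and 171 CPM in tumor of control mice and 92.7 and 126 in tumor of MHCII-deleted mice, with -0.93 ± 0.58 (SE, adjusted p = 0.25). Isg15 stood at 129.9, 195 and 138 against 73.7 and 73.5 CPM, with -1.07 ± 0.48 (SE, adjusted p = 0.123). The groups did not overlap for either gene, and the standard errors were several times that of Ly6e. Rsad2 stood at 94.0, 153 and 109 against 61.4 and 73.9 CPM, with -0.81 ± 0.67 (SE, adjusted p = 0.39). Ifit2 had the smallest difference (-0.09 ± 0.29), and its libraries overlapped (42.1, 68.4 and 30.3 against 38.3 and 49.9 CPM). The RNA sensor Ifih1 (MDA5) stood at 38.7, 55.5 and 40.7 against 26.5 and 32.7 CPM (-0.60 ± 0.30), and the other sensor, Ddx58 (RIG-I), at -0.43 ± 0.24. Stat2 stood at 71.2, 84.8 and 82.8 against 59.4 and 59.1 CPM (-0.43 ± 0.27). Usp18 stood at 97.8, 149 and 78.2 against 59.5 and 65.2 CPM (-0.79 ± 0.35). In each of these 4 the groups were separated, but the test did not call them. The remaining type I genes lay between -1.10 (Irf7) and -0.26 (Mx1).

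Among the gamma induced GTPases, Igtp had the largest fall. It stood at 1146, 557 and 741 CPM in tumor of control mice and 259 and 470 in tumor of MHCII-deleted mice, with -1.16 ± 0.32 (SE, adjusted p = 0.0257). Gbp4 stood at 213, 170.4 and 146 against 76.8 and 115 CPM, with -0.88 ± 0.24 (SE, adjusted p = 0.0241). Guanylate-binding proteins such as Gbp4 coat pathogen vacuoles and help to set off inflammasomes. Gbp5 stood at 85.5, 48.1 and 72.6 against 33.0 and 41.6 CPM, with -0.88 ± 0.23 (SE, adjusted p = 0.0187), and Gbp7 fell, with -0.65 ± 0.21. The other 4 lay between -0.73 (Iigp1) and -0.62 (Irgm1), and Iigp1 and Irgm1 overlapped between the groups. Irf1 stood at 896, 482 and 651 against 218 and 392 CPM, with -1.15 ± 0.29 (SE, adjusted p = 0.016). Cxcl10 stood at 392, 227 and 234 against 62.6 and 99.6 CPM, with -1.81 ± 0.54 (SE, adjusted p = 0.034). Parp14, an enzyme that attaches ADP-ribose to proteins, stood at 132, 137 and 90.3 against 69.8 and 84.5 CPM, with -0.63 ± 0.25 (SE, adjusted p = 0.0839). The MHCII-deleted libraries were below every control library for all 3.

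Relative to the T cell genes these falls were gone. On that scale 0 of the 37 fell and 5 rose (Ifit2 by 1.03, Ddx58 by 0.72, Stat2 by 0.70, Gbp7 by 0.46 and Irf9 by 0.43), where 0.323% of all genes were called lower and 67.4% higher. The median of the 37 was 0.25, that of type I genes 0.24 and that of GTPases 0.39, all below the 1.23 of all genes. Ly6e stood at -0.11, with 3863, 3875 and 4122 CPM on the T cell scale in control and 3895 and 3431 in MHCII-deleted mice. Igtp stood at -0.06 and Irf1 at -0.05, with libraries that overlapped on this scale. Those left furthest below 0 were Cxcl10 (-0.70) and Ifi27l2a (-0.53), neither past the test (adjusted p = 0.239 and 0.145). The lower calls thus hold relative to all counts of a library, which include the melanoma transcripts described above.

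**Figure D3:**
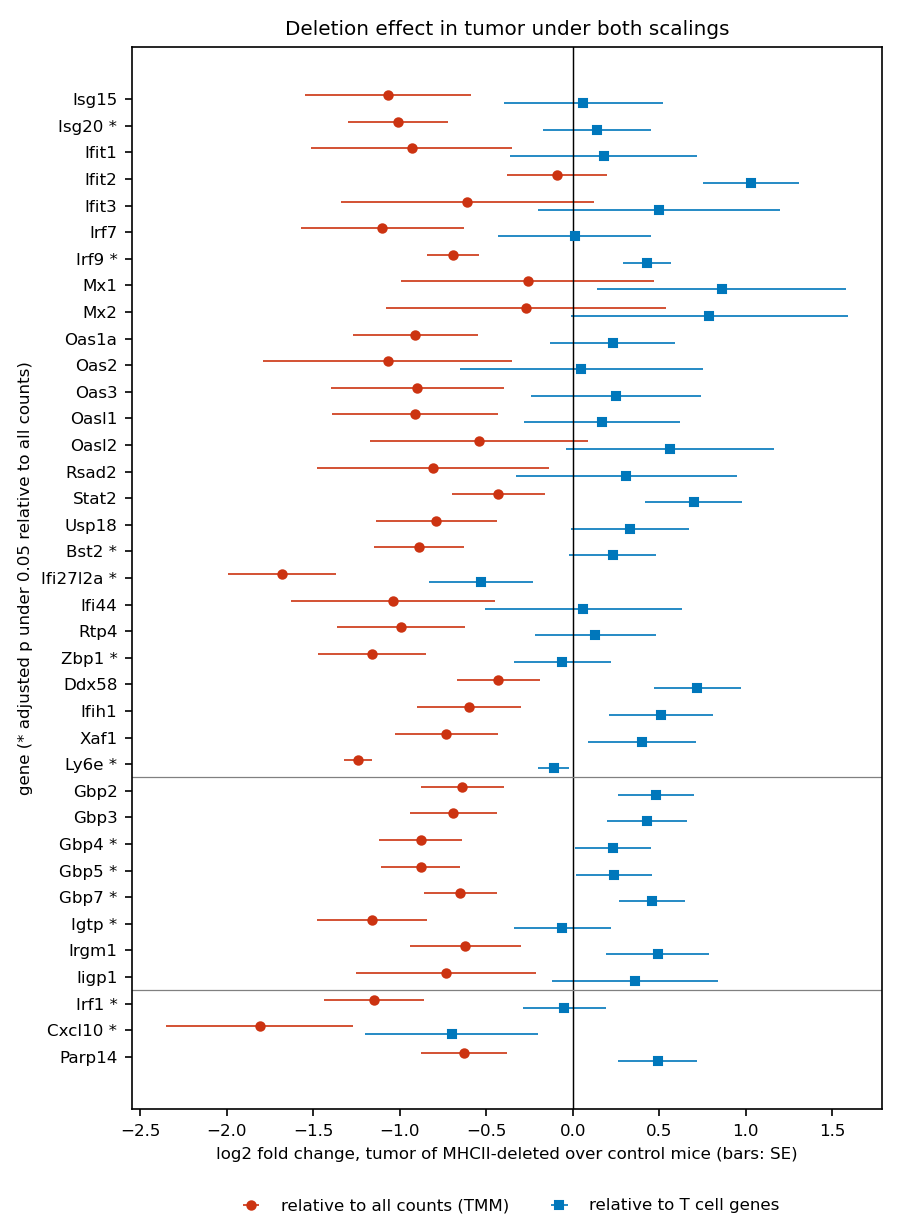
Log2 fold change of tumor of MHCII-deleted over control mice for each gene, relative to all counts (circles) and to the T cell genes (squares), with bars of 1 SE. All 37 circles lie left of 0, and the squares centre on 0.25.

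The count of 12 also depended on single libraries. It was 5 without tumor control library 1 (12.3% of all genes) and 2 without library 1 of tumor of MHCII-deleted mice (8.97%), which held the lowest level of all 8 GTPases. With limma-voom it was 6 (7.68% of all genes), 3 of them type I genes and 1 a GTPase. The division between the lists changed as well: with only the 2 tumor groups fitted, 15 members fell (10.2% of all genes), 13 of them type I genes and 1 a GTPase. Without both LN libraries of MHCII-deleted mice, an alternative chosen after seeing the data, it was 18 (12.9% of all genes), with Ifit1, Isg15, Irf7, Oas1a, Rtp4 and Xaf1 added. The calls of Irf9, Gbp5 and Irf1 were lost only without library 1 of tumor of MHCII-deleted mice, and those of Zbp1, Gbp4 and Igtp there and without tumor control library 1. Those of Isg20, Bst2, Gbp7 and Cxcl10 were lost in 4 to 6 of the 10 fits.

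Among the tumor libraries, the GTPases and the type I genes did not always rise and fall together. Tumor control library 1 was above library 2 in all 8 GTPases, with a median log2 difference of 0.81. That was so for only 4 of 26 type I genes (median -0.33) and for 6288 of 13920 genes. Library 2 was above library 3 in 3 of 8 GTPases (median -0.3) and 22 of 26 type I genes (median 0.46). Library 1 was above library 3 in all 8 GTPases (median 0.59) and 18 of 26 type I genes (median 0.16). Over all genes these 2 counts were 6967 and 6799. Iigp1, for example, stood at 359.6, 115 and 190.3 CPM and Irgm1 at 548, 284 and 335, both highest in library 1. Ifit1 at 177, 279 and 171 CPM and Irf7 at 384, 512 and 320.4 CPM were highest in library 2. In the LN libraries of MHCII-deleted mice both lists were higher in the same library. In tumor of MHCII-deleted mice library 2 was above library 1 in all 8 GTPases (median 0.50) and in 19 of 26 type I genes (median 0.28). Over all genes that count was 6625 of 13920. Stromal and endothelial markers summed to 558 CPM in tumor control library 1 and 4283 in library 2. Between these 2 control libraries the sum differed in the opposite order to the GTPases. In library 2 most of it was Col1a1, Col1a2 and Col3a1 (1434, 1076 and 1584 CPM). Cdh5, Kdr, Flt1, Lyve1 and Flt4, at most 6.32 CPM in these libraries, were higher in library 1. The other markers of the list were higher in library 2. In tumor of MHCII-deleted mice the sum was 366 CPM in library 1 and 926.4 in library 2, the same order as the GTPases. The part of these cells was not tested. These too are differences between single libraries, with no test.

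**Figure D4:**
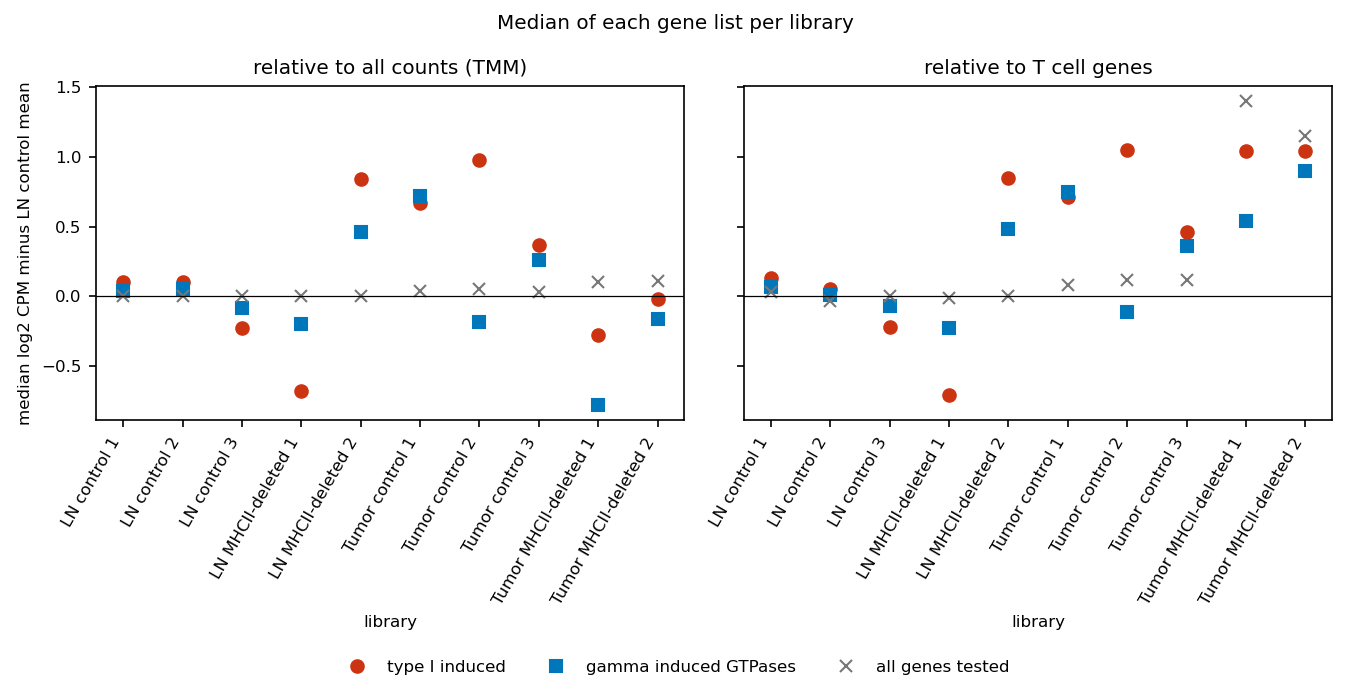
Median log2 CPM of each list minus the mean of LN libraries of control mice, per library, relative to all counts (left) and to the T cell genes (right); crosses are all genes tested. Type I genes span -0.68 to 0.84 within LN of MHCII-deleted mice, and the GTPases are highest in tumor control library 1 on the left.

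In MHCII-deleted mice, 12 of the 37 genes were lower in tumor than in LN relative to all counts and 1, Cxcl10, was higher, where 20.1% of all genes were called lower and 24.3% higher. Those that fell were the type I genes Irf9, Stat2, Usp18, Ifih1, Ifi27l2a, Ly6e, Zbp1, Ifit2 and Ddx58, the GTPases Gbp4 and Gbp5, and Parp14. Parp14 had the largest fall, from 180.2 and 257 CPM in LN to 69.8 and 84.5 in tumor (-1.50 ± 0.27 SE, adjusted p = 0.00166), while control mice stood at 175, 216 and 131 in LN and 132, 137 and 90.3 in tumor. Usp18 stood at 100.1 and 209.6 CPM in LN and 59.5 and 65.2 in tumor, with -1.31 ± 0.39 (SE, adjusted p = 0.0207). Irf9 went from 270.3 and 352 to 115 and 146 CPM, with -1.25 ± 0.16 (SE, adjusted p = 0.000179).

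The GTPase Gbp4 went from 177 and 272 CPM in LN to 76.8 and 115 in tumor of MHCII-deleted mice, with -1.22 ± 0.26 (SE, adjusted p = 0.00425). Gbp5 went from 59.5 and 76.6 to 33.0 and 41.6 CPM between the same groups, with -0.87 ± 0.25 (SE, adjusted p = 0.0174). Ifih1 went from 41.5 and 89.95 to 26.5 and 32.7 CPM, with -1.15 ± 0.32 (SE, adjusted p = 0.0162). In all 3, both tumor libraries of MHCII-deleted mice were below both LN libraries. Ifi27l2a went from 579 and 1343 CPM in LN to 475 and 417 in tumor, with -1.11 ± 0.32 (SE, adjusted p = 0.0191). Zbp1 went from 176 and 389 to 114 and 178 CPM, with -0.95 ± 0.33 (SE, adjusted p = 0.0405). For Zbp1 the tissues overlapped by 1 library each. In LN of control mice, for reference, Gbp4 stood at 223, 202 and 169 CPM and Gbp5 at 58.2, 63.6 and 60.3, while Ifih1 stood at 62.3, 53.7 and 49.1, Ifi27l2a at 1253, 1248 and 957 and Zbp1 at 253, 276 and 226. Isg20 and Bst2, which rose in control mice, stood at 61.3 and 148 CPM and at 92.2 and 189 CPM in LN of MHCII-deleted mice, with log2 fold changes of tumor over LN of 0.18 ± 0.31 and -0.28 ± 0.28. Cxcl10 rose by 1.86 ± 0.58 (SE, adjusted p = 0.0266).

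Here the 2 LN libraries decided the count. Without library 1 of LN of MHCII-deleted mice 23 members were lower and 0 higher (13.4% and 16.1% of all genes). Without library 2 of that group 4 were lower and 8 higher (13.5% and 16.6%), the latter with Ifit3, Isg15 and Rsad2 among them. Without library 1 of tumor of MHCII-deleted mice 6 were lower (15.4% of all genes), and without library 2 of that group 0 were higher (21.2%). The count was 5 with limma-voom (16.9% of all genes) and 6 when only the 2 groups were fitted (16%), and in the second fit Cxcl10 was not called. Irf9, Ly6e, Gbp4 and Parp14 were called in all 10 fits that left out 1 library. Relative to the T cell genes 0 fell and 8 rose (Cxcl10, Isg20, Oas1a, Gbp3, Gbp7, Bst2, Irf1 and Ly6e), where 2.28% and 64.3% of all genes were called. The tissue effects of the 2 genotypes share libraries with the deletion effects, so that no overlap between the comparisons is given.

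The deletion effect in tumor minus that in LN asks directly whether the genotypes differed more in 1 tissue. It was negative for all 37 genes, with a median of -1.17 against -0.01 for all genes, and 1 passed the test (6.57% of all genes were called lower and 4.14% higher). That gene was Ly6e, with -1.17 ± 0.11 (SE, adjusted p = 0.00312), called in all 10 fits that left out 1 library and at -0.04 relative to the T cell genes, where 0 members passed (0.144% of all genes were called lower and 46.3% higher). It had the smallest standard error of the 37, while larger differences, such as that of Cxcl10 with -2.40 ± 0.74 (SE, adjusted p = 0.0689), did not pass. The count became 20 without library 1 of LN of MHCII-deleted mice (3.63% of all genes), 13 with DESeq2 (10.4% of all genes), 7 without library 2 of tumor of MHCII-deleted mice (9.85%) and 4 without tumor control library 2 (5.65%). It was 1 without library 2 of LN of MHCII-deleted mice (2.6%).

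The genes upstream of the members were also measured. Of 9 interferon genes, only Ifng gave more than 2 counts in any library, and Ifnb1, Ifna2, Ifna4, Ifne, Ifnl2 and Ifnl3 had 0 counts in all 10. Ifng stood at 5.28, 2.86 and 5.51 CPM in LN and 56.2, 42.5 and 48.0 in tumor of control mice, a rise of 3.43 ± 0.29 (SE, adjusted p = 1.66e-05). In MHCII-deleted mice it stood at 5.94 and 3.92 CPM in LN and 16.3 and 19.2 in tumor. Its deletion effect in tumor was -1.46 ± 0.31 (SE, adjusted p = 0.00721), and -0.34 relative to the T cell genes. Between tumor and LN of MHCII-deleted mice it rose by 1.85 ± 0.34 (SE, adjusted p = 0.00162), so that Ifng was higher in tumor in both genotypes.

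The receptor chain Ifngr1 moved with tissue more than the other receptors, the kinases or Stat3. It stood at 343, 449.9 and 339 CPM in LN and 2480, 2635 and 2218 in tumor of control mice (2.70 ± 0.13 SE, adjusted p = 4.67e-07), and at 1237 and 1329 in tumor of MHCII-deleted mice. Its partner Ifngr2 stood at 44.8, 55.8 and 56.0 CPM in LN and 46.2, 52.8 and 51.1 in tumor of control mice, and was higher in tumor of MHCII-deleted mice (82.3 and 79.1 CPM, 0.69 ± 0.17 SE, adjusted p = 0.0142). Of the type I receptor chains, Ifnar1 rose in tumor of control mice (0.57 ± 0.10) and Ifnar2 fell (-0.28 ± 0.08).

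In the deletion effect in tumor, 6 of the 8 receptor and kinase genes, Stat3 included, fell and Ifngr2 rose, with a median of -0.60, where 13.7% of all genes were called lower and 15% higher. Of 10 regulators 6 fell, among them the repressor Irf2 (-1.14 ± 0.12), Irf5 (-0.92 ± 0.17) and Irf8 (-1.07 ± 0.20). Of 11 sensing genes tested 5 fell and 1 rose, with Tmem173 (STING) at -0.96 ± 0.11, Myd88 at -0.92 ± 0.13 and Ikbke at -0.74 ± 0.12. Of 49 other interferon targets tested 19 fell and 0 rose, with a median of -0.73, among them the immunoproteasome subunits Psmb8 (-0.98 ± 0.14) and Psmb9 (-1.16 ± 0.15) and Ifi203 (-1.22 ± 0.18). Relative to the T cell genes, 0 genes of these lists fell, and 6, 5, 4 and 11 rose in the same order, all shares to be read against the 67.4% of all genes called higher. In LN 0 genes of these lists passed the test of the deletion effect, with 1, 2, 0 and 3 at an unadjusted p under 0.05 (0.0359% of all genes were called lower and 1.07% higher).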

How the data were processed

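The deposited values are whole-number counts of reads per gene that the authors made from single reads of 50 bases. Per the submitters' processing notes, the tools were CASAVA 1.8.2, STAR 2.4 and featureCounts 1.4.6 with genome build GRCm38. The annotation release, the strand setting and the treatment of reads with several matches are not given in the sources used here. Per the labels' protocols, libraries were made from small amounts of RNA with SMARTer Ultra Low and Nextera XT kits, which amplify by PCR.

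From these counts, edgeR 4.0.16 (R 4.3.3) fitted 1 quasi-likelihood model with 4 group means to all 10 libraries. Library sizes were normalized by TMM, and filterByExpr with a minimum count of 10 kept 13920 of 21556 genes. P-values were adjusted by Benjamini-Hochberg over these genes, and an adjusted p under 0.05 counts as a call. The T cell scale replaces library size by the summed counts of 20 T cell genes. Genes printed library by library had to pass in some comparison with a group mean of at least 10 CPM, at most 10 type I and 6 other genes. Some further genes (Ifit1, Ifit2, Ifit3, Isg15, Irf7, Mx1, Oas2, Oasl2, Iigp1 and Irgm1) were chosen after their values were seen. Pathway genes that are no members were named by the smallest p of each list in the deletion effect in tumor. The receptors, kinases and Stat3 were named in any case. The 37 genes and all lists were chosen with earlier results of these data known. Alternatives used limma 3.58.1, DESeq2 1.42.0 and the settings named in the closing section. Gene positions come from GENCODE M21, which matched all 21556 identifiers, and promoter sequences from RefSeq. 1 gene of the signalling list is not reported here.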

Additional observations from a re-analysis of the deposited data

Results flagged for a closer look

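The deletion effect differed between tumor and LN by a test of the difference itself (edgeR's interaction contrast, adjusted over all genes) for 1 of the 37 genes and for 13 named genes of the interferon pathway, where 6.57% of all genes were called lower and 4.14% higher. Over the whole lists, 4 of 8 receptor and kinase genes, 3 of 10 regulators, 3 of 11 sensing genes, 14 of 49 other targets and Ifng passed, all lower. Those not chosen for naming were Socs1 (-2.21, adjusted p = 0.0263), an inhibitor of the receptor kinases, and the targets Ifi47, Gbp8, Nlrc5, Samhd1, Sp100, Sp110, Epsti1, Phf11b, Slfn1, Slfn2 and Mndal, between -1.38 and -0.88. Each value is the log2 deletion effect in tumor minus that in LN, relative to all counts. Ly6e stood at -1.17 (adjusted p = 0.00312). Among receptors and kinases, Ifnar2 stood at -0.79 (adjusted p = 0.00717), Jak1 at -0.72 (0.029), Tyk2 at -0.77 (0.0331) and Ifngr1 at -0.74 (0.0347). The cytokine Ifng itself stood at -1.58 (adjusted p = 0.0433). Among regulators, Irf2 stood at -1.20 (adjusted p = 0.00448) and Irf8 at -1.18 (0.0245). Among sensing genes, Tmem173 stood at -0.82 (adjusted p = 0.0119), Ikbke at -0.74 (0.0199) and Myd88 at -0.67 (0.0404). Among other targets, Ifi203 stood at -1.45 (adjusted p = 0.00898), Psmb9 at -1.17 (0.00898) and Psmb8 at -0.96 (0.0144). All 14 named genes, Ly6e included, were negative. The pathway genes among them were named by small p-values in the deletion effect in tumor, or as receptors and kinases. That effect is part of this difference, so the choice favoured genes that pass here. Relative to the T cell genes, 8 of the 14 named genes turned positive and 6 stayed negative. Ifng at -0.44 and Ifi203 at -0.31 were the lowest. The sum of the T cell genes and that of the melanoma markers moved with this difference, and their part was not tested.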

How the results depend on the processing

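Scaling to the T cell genes turned the sign of results. Members called lower became 0 in the deletion effect in tumor, 1 in the tissue effect in control mice, 0 in that in MHCII-deleted mice and 0 in the deletion effect in tumor minus LN, while those called higher became 5 in the first comparison and 8 in MHCII-deleted mice. Signs turned for 37 of 85 named results. In the deletion effect in tumor these were Irf9 (0.43), Isg20 (0.14), Bst2 (0.23), Gbp4 (0.23), Gbp5 (0.24), Ifnar1 (0.48), Ifnar2 (0.53), Ifngr1 (0.20), Jak1 (0.53), Tyk2 (0.30), Stat3 (0.59), Irf5 (0.22), Irf8 (0.04), Tmem173 (0.16), Myd88 (0.20), Ikbke (0.39) and Psmb8 (0.14). In the tissue effect in MHCII-deleted mice they were Ly6e (0.26), Ifi27l2a (0.10), Stat2 (0.04), Ifih1 (0.04), Zbp1 (0.22), Gbp5 (0.32), Ifnar2 (0.13), Jak1 (0.12), Tyk2 (0.77), Myd88 (0.22), Psmb8 (0.27) and Psmb9 (0.13). In the deletion effect in tumor minus LN they were Ifnar2 (0.34), Ifngr1 (0.39), Jak1 (0.42), Tyk2 (0.36), Tmem173 (0.31), Myd88 (0.46), Ikbke (0.40) and Psmb8 (0.17). No other setting turned a sign.

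With limma-voom 6 members were lower in the deletion effect in tumor, 1 in the tissue effect in control mice and 5 in that in MHCII-deleted mice. DESeq2 called 15 higher in the tissue effect in control mice and 13 lower in the deletion effect in tumor minus LN. With only the groups compared, 15 were lower in the deletion effect in tumor (13 type I genes and 1 GTPase in place of 6 and 4), 20 were higher in control mice, and 6 lower and 0 higher in MHCII-deleted mice; the difference of the deletion effects uses all groups and has no such fit. Without the low-count filter 0 were higher in MHCII-deleted mice. Leaving out both LN libraries of MHCII-deleted mice, chosen after seeing the data, gave 17 higher in control mice and no value for comparisons that need them. The cause of these changes was not tested.

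Leaving out 1 library at a time gave 2 to 18 members lower in the deletion effect in tumor, 1 to 3 lower and 3 to 18 higher in the tissue effect in control mice, 4 to 23 lower and 0 to 8 higher in that in MHCII-deleted mice, and 1 to 20 lower in the deletion effect in tumor minus LN. Where this left 1 library in a group, it was assumed to vary like the others. Same-numbered samples of the 2 tissues deviated together with correlations of 0.02 to 0.05 at most, under the 0.1 asked for. The main fit does not pair them. With so few libraries per group, such correlations cannot show whether same-numbered samples come from the same mouse. With the replicate block, the deletion effect in tumor minus LN called 3 (Ly6e, Parp14 and Usp18) in place of 1, and the other counts over the 37 genes stayed within 1.5 times. Of the GTPases, 2 in place of 4 were then lower in the deletion effect in tumor and 1 in place of 2 higher in the tissue effect in control mice.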
